A study of Rattus norvegicus with 12 samples.

Results

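The liver miRs described here are 5 mature microRNAs (miRs), rno-miR-122-5p, rno-miR-122-3p, rno-miR-192-5p, rno-miR-194-5p and rno-miR-148a-3p (named without the species prefix from here on), picked by name from the 426 miRs counted in extracellular vesicles (EVs) of rat serum. All animals were female Wistar rats aged 12 weeks in which a needle was used to injure the left Achilles tendon, the vehicle groups included. Rapamycin, an inhibitor of the kinase mTOR, was injected into the peritoneum daily at 2 mg/kg, and vehicle animals received polyethylene glycol and TWEEN 80 in water. The drug had first been dissolved in dimethyl sulfoxide, which the vehicle as described did not contain, so the treatments also differ in that solvent. Serum was taken at day 7 after 5 injections or at day 21 after 19, with 3 animals in each of the 4 combinations of treatment and day, so the 12 libraries come from separate animals. The labels give tendon as the tissue of every library, whereas the RNA was extracted from EVs that had been isolated from clotted serum by size exclusion, a step that can also carry lipoprotein and protein particles of similar size.

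miR-122 is the most abundant miR of hepatocytes and is close to specific for them, so its level in blood is widely used as a marker of hepatocyte RNA release. miR-192 and miR-194 are made from genes that lie in clusters and are abundant in liver, gut epithelium and kidney. miR-148a is abundant in liver but is also made by many other cells, blood cells among them. A miR precursor is a hairpin whose 5p and 3p strands are cut out as a duplex; Argonaute keeps mostly 1 strand, and for miR-122 that is the 5p strand. A level in serum EVs is a share of all miR counts, so fewer vesicles from a cell type and less miR per vesicle cannot be told apart.

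All 5 of 5 members were found among the RefSeq mature miRs of the rat assembly GRCr8. Their sequences are shown, 5′ to 3′, because the arms and seed families below are compared by them, and capitals mark the seed, bases 2 to 8, through which a miR pairs with its targets.
miR-122-5p: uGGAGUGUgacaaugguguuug
miR-122-3p: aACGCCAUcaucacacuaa
miR-192-5p: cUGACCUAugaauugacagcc
miR-194-5p: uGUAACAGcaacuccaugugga
miR-148a-3p: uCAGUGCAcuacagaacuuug

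No other mature miR among the 693 in the sequence table shared the seed of either miR-122 arm or of miR-194-5p. miR-215, which was absent from the counts, shares the seed of miR-192-5p. miR-148b-3p and miR-152-3p share that of miR-148a-3p and were counted, so these relatives are shown for comparison.
miR-215: aUGACCUAugauuugacagaca
miR-148b-3p: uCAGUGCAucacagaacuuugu
miR-152-3p: uCAGUGCAugacagaacuugg

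In GRCr8, the gene of miR-192 has that of 1 of the 2 miR-194 precursors as its nearest neighbour, and the other miR-194 precursor lies beside miR-215 inside Iars2, which encodes a mitochondrial isoleucyl-tRNA synthetase. The gene of miR-122 overlaps that of another annotated hairpin, Mir3591, and the gene of miR-148a has no gene overlapping it.

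Of the 12 libraries, 10 are in the study's own list of sequenced reads and formed the main set. The others, rapamycin day 7 replicate 2 and vehicle day 7 replicate 1, stood apart: they held 5.53 and 12.8 miR counts per count of the 7 synthetic calibrators spiked into each library, against 0.686 to 1.58 in the 10. Total miR counts ran from 16327 to 51391 in the 10 and were 51431 and 95834 in the others, so 3 counts, the limit that a count of 0 allows, correspond to 58.4 to 184 counts per 1000000 miR counts (CPM) in the 10. Both of the libraries outside the list belong to day 7, so results are given over the 10 libraries and again over all 12. This limit covers counting error only, and reads were counted without molecular identifiers.

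The liver miRs were a minor and uneven share of the serum EV miRs. Together the 5 made up 0.233 to 1.68% of miR counts in the 10 libraries and 1.57% and 1.91% in the other 2. miR-148a-3p ranked 46th by mean CPM among the 365 miRs detected in the 10 libraries and was the only member with at least 10 counts in all 12. miR-122-5p ranked 50th, miR-192-5p 86th, miR-122-3p 103rd and miR-194-5p 299th. CPM is not scaled by length, and mature miRs are all of about the same length.

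miR-122-5p, the main hepatocyte strand, was high in the rapamycin libraries of day 7 and low in most libraries of day 21, where its replicates spread widely. With rapamycin at day 7 it had 289 counts (8881 CPM) in replicate 1, 183 (8186 CPM) in replicate 3 and 468 (9100 CPM) in replicate 2. With rapamycin at day 21 it had 6 counts (367 CPM), 96 (4222 CPM) and 0 in replicates 1, 2 and 3. All day 7 values with rapamycin therefore lay above all day 21 values. With vehicle at day 7 it had 128 counts (3017 CPM) in replicate 2, 154 (2997 CPM) in replicate 3 and 1119 (11676 CPM) in replicate 1, which is outside the list. With vehicle at day 21 it had 34 counts (1058 CPM), 5 (174 CPM) and 128 (5113 CPM) in replicates 1, 2 and 3. The vehicle days overlapped, because replicate 3 of day 21 was higher than 2 of the 3 libraries of day 7.

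miR-122-3p, the other strand of the hairpin, was lower and followed the same broad order. It had 33, 48 and 32 counts with rapamycin at day 7 (1014, 933 and 1431 CPM in replicates 1, 2 and 3) and 0, 6 and 9 counts at day 21 (0, 264 and 378 CPM). With vehicle it had 78, 22 and 17 counts at day 7 (814, 519 and 331 CPM) and 1, 1 and 20 at day 21 (31.1, 34.8 and 799 CPM). The rapamycin days did not overlap and the vehicle days did.

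miR-192-5p, a liver, gut and kidney miR, gave 37, 89 and 55 counts with rapamycin at day 7 (1137, 1730 and 2460 CPM) and 0, 19 and 0 at day 21, the 19 being 836 CPM. With vehicle it gave 153, 28 and 28 counts at day 7 (1597, 660 and 545 CPM) and 15, 3 and 24 at day 21 (467, 105 and 959 CPM). It was highest in the rapamycin libraries of day 7 and in the vehicle day 7 library outside the list.

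miR-194-5p was at the detection limit. It had 2 counts in rapamycin day 7 replicate 1 and 1 in rapamycin day 21 replicate 2, and 0 in the other 8 of the 10 libraries. The 2 libraries outside the list held 6 and 13 counts (117 and 136 CPM). No fold change is given for it, since every group of the main set was under 3 counts per library.

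miR-148a-3p was the steadiest member. With rapamycin it had 4364, 3830 and 4697 CPM at day 7 and 1960, 3123 and 2687 CPM at day 21 in replicates 1, 2 and 3. With vehicle it had 4831, 3418 and 4592 CPM at day 7 and 3829, 4007 and 5793 CPM at day 21. The 3 rapamycin libraries of day 21 were the lowest of the 12, and the other 3 groups overlapped.

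**Figure D1:**
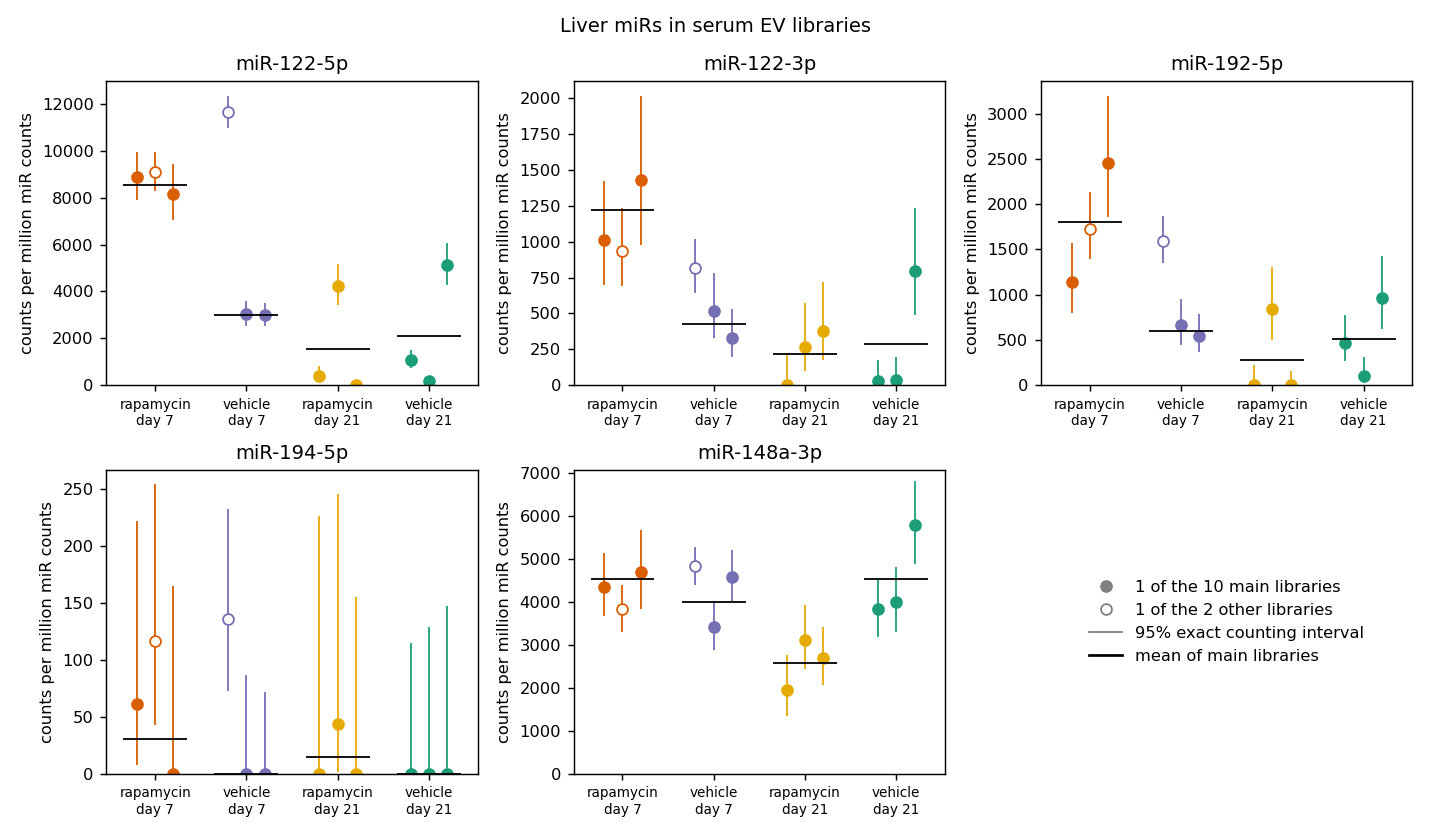
Each panel plots 1 miR in CPM (linear axis from 0) in every library, by treatment and day, with vertical lines for the two-sided exact 95% counting interval (which at a count of 0 reaches above the limit of 3 counts), open points for the 2 libraries outside the study's list and black lines for the mean of the listed libraries. miR-122-5p lies between 8186 and 9100 CPM with rapamycin at day 7 and between 0 and 4222 CPM with rapamycin at day 21.

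Relative to the calibrators the picture of the 10 libraries was similar and the gap to the 2 other libraries was wider. miR-122-5p had 13.3 and 8.39 counts per 1000 calibrator counts in the listed rapamycin libraries of day 7, 4.77 and 4.74 in those of vehicle, 0.252, 4.64 and 0 with rapamycin at day 21, and 1.60, 0.219 and 4.88 with vehicle at day 21. In the 2 libraries outside the list it had 50.4 (rapamycin) and 149 (vehicle). These 2 values lay above all 10 listed libraries.

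Day 21 was compared with day 7 after injury over both treatments, with treatment kept as a block. miR-122-5p fell by 1.54 on the log2 scale (SE 0.33, 2.91-fold lower) with an adjusted P of 0.00138 by edgeR's quasi-likelihood test. It was the only member and the only 1 of 365 miRs that passed, which is a background of 0.274% of all miRs tested. Over all 12 libraries its log2 change was -1.84 (SE 0.38, adjusted P = 0.000149, edgeR), again the only 1 of the 5 members called, with 15 of 426 miRs (3.52%) past the threshold.

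The spread of miR-122-5p between animals limits this call. With all 365 miRs in the model, edgeR put miR-122-5p on the common spread (a moderated quasi-dispersion of 0.651), although its own was 8.50. Each SE given here was derived from edgeR's F test and carries the moderated spread of its fit. It therefore does not measure how far miR-122-5p varied between animals, in this comparison or in those of treatment and the interaction below. With the 135 miRs that pass edgeR's expression filter, the moderated value was 5.78, the log2 change was -1.51 and the adjusted P was 0.785. DESeq2 gave -1.56 with an adjusted P of 0.993, and calibrator counts as library sizes gave -1.95 with 0.614 by edgeR. An exact two-sided permutation test of the day labels within each treatment gave a mean difference of -2.74 on the log2 CPM scale with P = 0.07 over the 10 libraries (smallest possible 0.01) and -3.07 with P = 0.015 over the 12 (smallest possible 0.005). The direction was the same in each of these.

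Single libraries moved the day difference as well. Without rapamycin day 21 replicate 1 miR-122-5p changed by -1.22 and was not called (adjusted P = 0.0873, edgeR). Without rapamycin day 21 replicate 2 the change was -2.45, and without vehicle day 21 replicate 3, the 1 vehicle library of day 21 with a high level, it was -2.41. Without the latter miR-122-3p (-2.76, adjusted P = 0.00562, edgeR) and miR-192-5p (-1.93, adjusted P = 0.0335) were called too.

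The other members were not called between the days. miR-192-5p had a log2 change of -1.45 (SE 0.53, adjusted P = 0.220) and miR-122-3p one of -1.47 (SE 0.60, adjusted P = 0.401), both by edgeR over the 10 libraries. Over all 12 their changes were -1.56 (adjusted P = 0.0613) and -1.51 (adjusted P = 0.127). In the exact permutation test these had P = 0.11 and 0.07 over the 10 libraries and 0.025 each over the 12. miR-148a-3p had a log2 change of -0.25 (SE 0.31, adjusted P = 0.899, edgeR), a difference within the spread between libraries. The median log2 change of the 4 members was -1.46, against -0.05 over all 365 miRs, and over 12 libraries it was -1.54 against -0.54.

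Within treatments, 4 of the 5 members did not overlap between days with rapamycin (all but miR-194-5p, each lower at day 21), where 14.2% of all miRs did not overlap in the 10 libraries and 9.86% in the 12. With vehicle, 0 of the 5 were free of overlap, against 11.5% of all miRs in the 10 libraries and 6.57% in the 12. Whether the change over time differed between the treatments was tested by the interaction. No member passed by edgeR or DESeq2 (0 of 5, with 2 at an unadjusted P under 0.05 by edgeR over 10 libraries and 0 over 12), where edgeR called 0.274% of all miRs over 10 libraries and 0.0% over 12. miR-122-5p had an interaction of -1.87 (SE 0.66, unadjusted P = 0.00455, adjusted P = 0.415, edgeR) over the 10 libraries and -1.16 (adjusted P = 1.00) over the 12, and miR-192-5p one of -2.30 (SE 1.05, adjusted P = 1.00) over the 10. Single libraries moved that of miR-122-5p from -5.02 without rapamycin day 21 replicate 2 to -0.36 without vehicle day 21 replicate 3, and it was not called in either case or without any other library (lowest adjusted P = 0.0553, edgeR, without vehicle day 21 replicate 2). Without rapamycin day 21 replicate 2, the only rapamycin library of that day with miR-192-5p, the interaction of miR-192-5p passed (adjusted P = 0.000103, edgeR), with no bound on its size because the remaining rapamycin libraries are at 0.

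Rapamycin was next compared with vehicle at day 7, early in healing. No member was called by edgeR over the 10 libraries, where 0.548% of all miRs were, or over the 12, where 0.0% were, and DESeq2 called 0. At an unadjusted P under 0.05 edgeR had 1 member over 10 libraries and 0 over 12. miR-122-5p was 2.58-fold higher with rapamycin in the fit of the 10 libraries (log2 1.37, SE 0.50, unadjusted P = 0.00687, adjusted P = 0.421, edgeR), and miR-192-5p (1.43, SE 0.78) and miR-122-3p (1.38, SE 0.90) had similar values. These 3 members did not overlap between the treatments among the 10 libraries, but neither did 31.8% of all miRs, since the comparison then has 2 libraries a side and its exact permutation test cannot go below P = 0.333. With vehicle replicate 1 and rapamycin replicate 2 included, the difference of miR-122-5p was 0.57 (SE 0.51), and only miR-122-3p had no overlap, against 3.52% of all miRs. Fitted on day 7 alone, the 4 listed libraries gave the same log2 value for miR-122-5p with an adjusted P of 0.00213 (edgeR). miR-148a-3p had a log2 difference of 0.03 (SE 0.48), and its sign turned to -0.11 over 12 libraries.

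At day 21 no member was called by edgeR or DESeq2 either, with 0.0% of all miRs called by edgeR over the 10 and over the 12 libraries and 1 member at an unadjusted P under 0.05 over the 10. miR-148a-3p was the member whose groups separated. Its 3 rapamycin libraries (1960 to 3123 CPM) lay below the 3 vehicle libraries (3829 to 5793 CPM), a lack of overlap shared by 5.48% of all miRs in the 10 libraries and 4.69% in the 12. It was 1.75-fold lower with rapamycin (log2 -0.81, SE 0.40, unadjusted P = 0.0449, adjusted P = 1.00, edgeR), and the exact permutation test gave P = 0.1, the smallest that 3 against 3 libraries allow. miR-122-5p had a log2 difference of -0.50 (SE 0.43) and turned to 1.05 without vehicle day 21 replicate 3. Its libraries ran from 0 to 4222 CPM with rapamycin and from 174 to 5113 CPM with vehicle, a spread that this SE does not measure. The exact permutation test gave it P = 0.6 over the 10 libraries. miR-192-5p had a log2 difference of -0.87 (SE 0.70) and miR-122-3p one of -0.25 (SE 0.82), which was 2.46 without vehicle day 21 replicate 3. Without rapamycin day 21 replicate 2 miR-192-5p was called (adjusted P = 0.00248, edgeR), and its fitted log2 value of -6.93 is no measure of size, because the remaining rapamycin libraries are at 0.

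Over both days, with day as a block, no member differed between the treatments by edgeR (0.548% of all miRs called over 10 libraries, 0.0% over 12), with 0 at an unadjusted P under 0.05 and 0 called by DESeq2. miR-122-5p had a log2 difference of 0.28 (SE 0.33), miR-122-3p of 0.50 (SE 0.61), miR-192-5p of 0.15 (SE 0.55) and miR-148a-3p of -0.47 (SE 0.31). Without vehicle day 21 replicate 3 the difference of miR-122-5p was 1.23 and passed the test (adjusted P = 0.0418, edgeR), and without rapamycin day 21 replicate 2 it was -0.58. The exact permutation test of treatment within days gave P = 0.95 for miR-122-5p and 0.117 for miR-148a-3p over 10 libraries (smallest possible 0.0167), and for miR-148a-3p 0.035 over all 12.

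**Figure D2:**
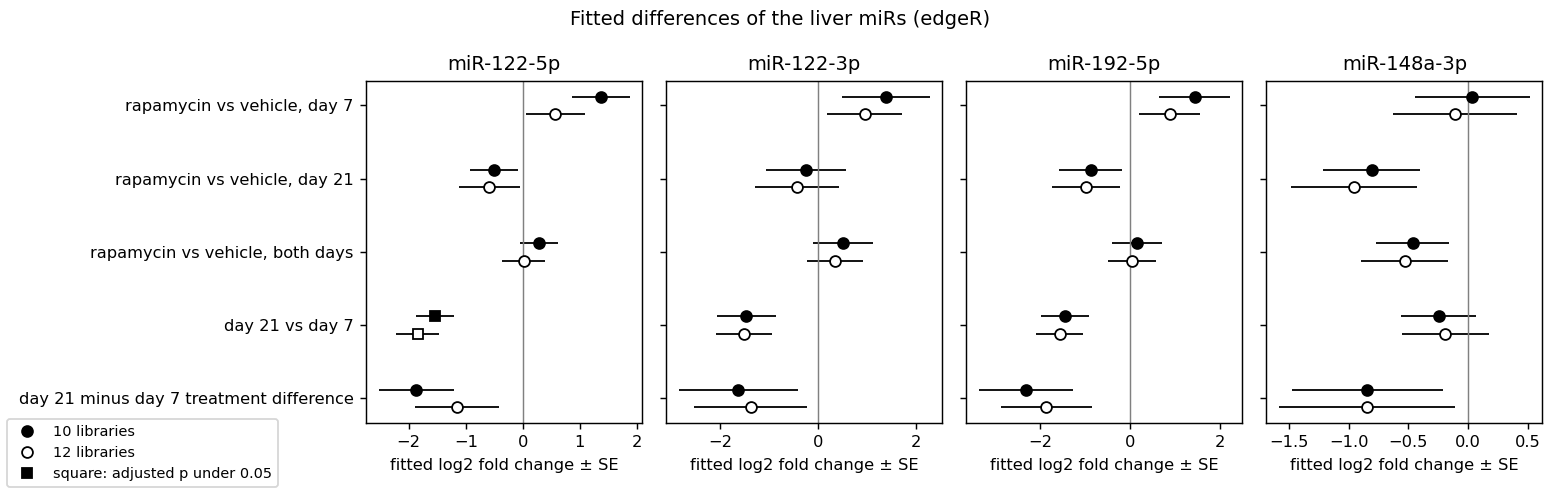
Fitted log2 fold changes with their SE (horizontal axis) for 4 members in the 5 comparisons (rows), with filled symbols for the 10 listed libraries, open ones for all 12 and squares for an adjusted P under 0.05. The squares stand only at miR-122-5p between day 21 and day 7, at -1.54 and -1.84. The SE carries edgeR's moderated spread and does not measure how far each miR varied between animals.

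The members were then compared with each other across libraries. miR-122-5p and miR-192-5p rose and fell together: over the 10 libraries their log2 CPM values had Pearson's r = 0.93 (P = 0.00048, adjusted over 10 pairs 0.0048) and Spearman's rho = 0.96 (P = 6e-05), both by permutation. The r was 0.92 without the 2 libraries farthest from the median of miR-122-5p, 0.93 over all 12, 0.93 on the calibrator scale and 0.89 for deviations from the group means. Leaving out each library in turn kept it between 0.90 and 0.97. In the 6 listed libraries with at least 96 counts of miR-122-5p, miR-192-5p had 12.8 to 30.1 counts for every 100 of miR-122-5p, and the 2 libraries outside the list had 19.02 and 13.7. In the listed libraries with fewer counts the ratio was 44.1 (15 against 34 counts), 60.0 (3 against 5) and 0 (0 against 6), and rapamycin day 21 replicate 3 had neither miR.

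The remaining pairs were not called over the 10 libraries by r or rho, adjusted over the 10 pairs. Over all 12 libraries rho also passed for miR-122-3p with miR-192-5p (adjusted permutation P = 0.0102), for the 2 strands of miR-122 (0.0235) and for miR-122-5p with miR-194-5p (0.0343), and r passed for none of these. miR-194-5p was detected in only 4 of the 12, with its highest counts (6 and 13) in the 2 libraries outside the list. Its rho therefore rests mostly on ties at 0. miR-122-3p and miR-192-5p had r = 0.66 (permutation P = 0.0470, adjusted 0.216, n = 10) and rho = 0.76 (permutation P = 0.0151, adjusted 0.0753). The 2 strands of miR-122 had r = 0.58 (permutation P = 0.0863, adjusted 0.216, n = 10) and rho = 0.70 (permutation P = 0.0303), and r = 0.95 without the 2 libraries farthest from the median. Rapamycin day 21 replicate 3 lowered the r of these strands, which was 0.92 without that library (adjusted P = 0.00587, exact permutation). miR-122-5p and miR-148a-3p had r = 0.44 (permutation P = 0.231, adjusted 0.330) and rho = 0.38 (permutation P = 0.278), and miR-148a-3p had 41.4 to 2300 counts for every 100 of miR-122-5p in the 11 libraries that hold any, and 41.4 to 153 in the 8 with at least 96 counts of miR-122-5p. miR-192-5p and miR-148a-3p had r = 0.63 (permutation P = 0.0705, adjusted 0.216) and rho = 0.43 (permutation P = 0.218), and r was 0.03 without the 2 farthest libraries, so that the relation rested on those.

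**Figure D3:**
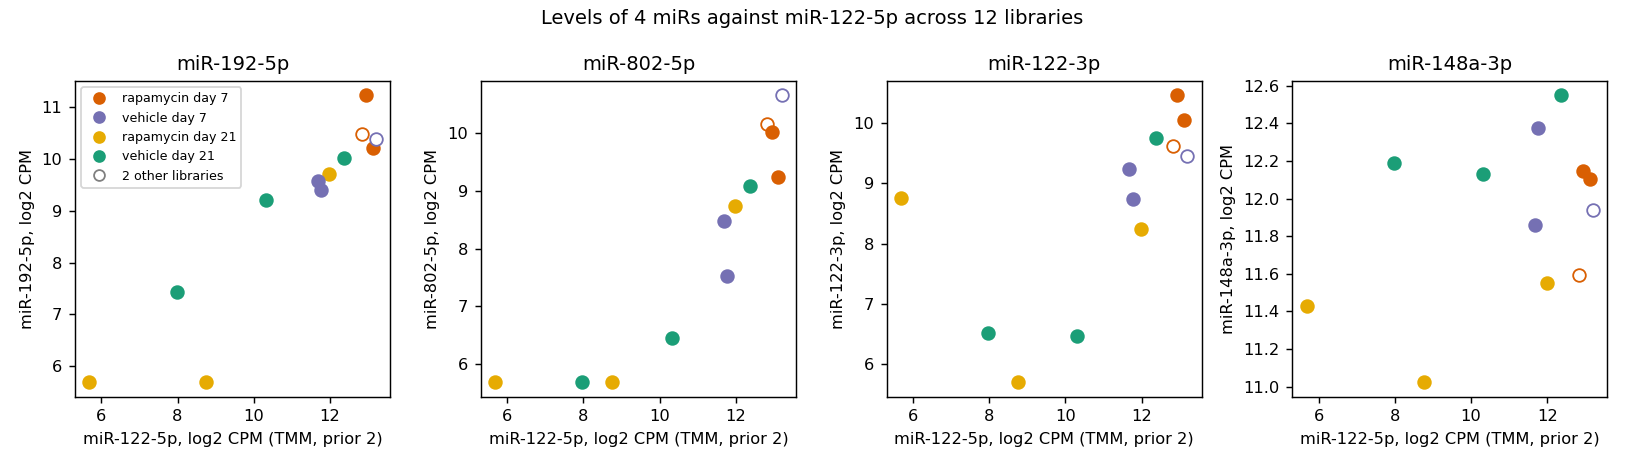
Log2 CPM (TMM scaling, prior count 2) of miR-192-5p, miR-802-5p, miR-122-3p and miR-148a-3p on the vertical axes against miR-122-5p on the horizontal axes, 1 point a library, coloured by group, with open points for the 2 libraries outside the list. miR-192-5p (r = 0.93) and miR-802-5p (r = 0.90) line up with miR-122-5p, while 1 rapamycin day 21 library at the far left departs in the miR-122-3p panel.

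The ratio of the miR-122 strands was then examined, since both come from the same hairpin and both values share each library's depth. Pooled over the 10 libraries, 141 of 1164 miR-122 counts were on the 3p strand, 12.1% (exact 95% interval 10.3 to 14.1), or 7.26 counts of 5p for each of 3p. The share was 12.1% at day 7 (104 of 858) and 12.1% at day 21 (37 of 306). It was 12.1% (9.47 to 15.2) with rapamycin and 12.1% (8.78 to 16.2) with vehicle at day 7, and 12.8% (7.36 to 20.3) and 11.6% (7.44 to 17.1) at day 21. The shares of day 21 rested on single libraries. Without rapamycin day 21 replicate 3 that group had 6 of 108 counts on the 3p strand, 5.56% (2.07 to 11.7), and day 21 as a whole 9.43% (28 of 297, 6.36 to 13.3). Without rapamycin day 21 replicate 2 the rapamycin share was 60.0% (9 of 15), and without vehicle day 21 replicate 3 the vehicle share was 4.88% (2 of 41, 0.596 to 16.5). The intervals of the 4 groups with all listed libraries overlapped, and at day 21 a change of several percentage points would not be detectable at these depths. Intervals pool libraries and cover counting error only. The 2 libraries outside the list were lower, 9.30% (6.94 to 12.1) and 6.52% (5.18 to 8.07), and with them the pooled share was 9.28% (8.24 to 10.4).

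Library by library, the 3p share lay between 0 and 16.7% in 9 of the 10. The exception was rapamycin day 21 replicate 3, with 9 counts of miR-122-3p and 0 of miR-122-5p, a share of 100% (exact interval 66.4 to 100). That library had 23822 miR counts, so 0 counts of miR-122-5p allow a level of up to 126 CPM by the limit of 3 counts, below the 378 CPM (173 to 717) of its miR-122-3p. Among 135 hairpins with both strands counted, 935 combinations of hairpin and library had at least 9 counts, the usually minor strand exceeded the major in 32 of them, and it reached 9 counts with the major strand at 0 in 2, this library's miR-122 and miR-322 in vehicle day 21 replicate 2. In the same library miR-192-5p and miR-802-5p were at 0 and miR-148a-3p had 64 counts (2687 CPM).

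**Figure D4:**
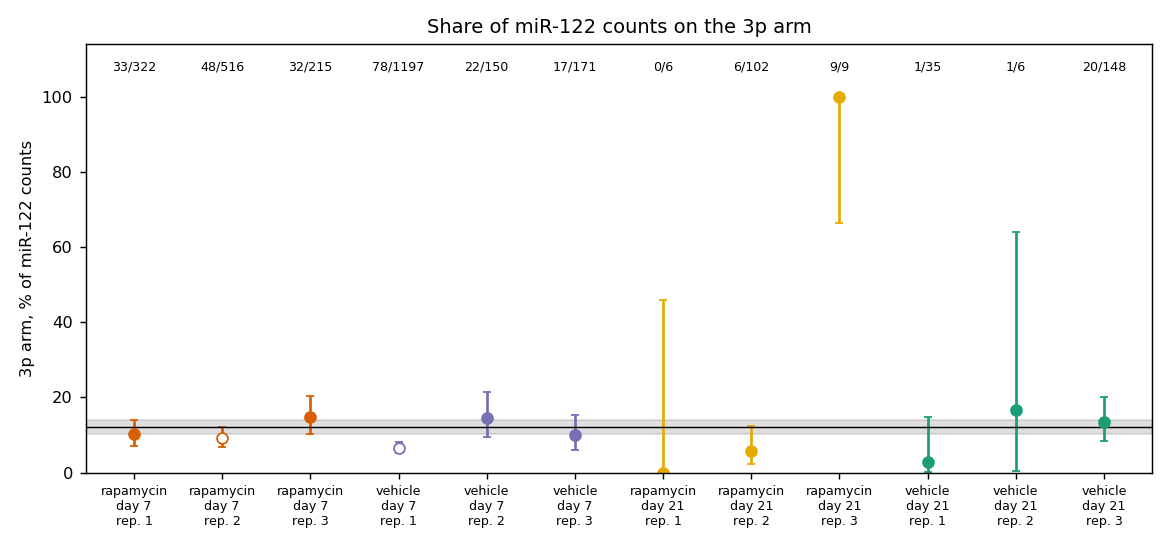
Share of miR-122 counts on the 3p strand (vertical axis, percent) for each library (horizontal axis, coloured by group, open points outside the list) with exact 95% intervals, and 3p over total counts printed above. The grey band is the pooled share of the 10 libraries, 12.1% (10.3 to 14.1), which the interval of each listed library but rapamycin day 21 replicate 3 meets.

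The relatives of these miRs were taken as a list of 10, the partner strands, seed relatives and the hepatocyte-enriched miR-802, of which 9 were in the counts. None was called by edgeR between the days in the 10 libraries, where 0.274% of all miRs were (0 of 8 with counts, and 0 at an unadjusted P under 0.05), with 6 of 8 below 0 and a median log2 change of -0.75, against -0.05 over all miRs. The 8 include miR-192-3p, miR-194-3p and miR-148b-5p, which were detected in only 2, 2 and 5 of the 10 libraries. These are near the detection limit, so the signs and the median do not measure a change of the list. Over 12 libraries, where 3.52% of all miRs were called, 1 of 9 was, miR-802-5p, which fell by 2.30 on the log2 scale (SE 0.61, adjusted P = 0.00878, edgeR). At an unadjusted P under 0.05 the list then had 4 of 9, against 62 of all 426 miRs, and its median was -1.39, against -0.54 over all miRs. That median is the value of miR-152-5p, which was detected in only 2 of the 12 libraries, so it has the same limit. In treatment comparisons edgeR called 0 of the list at either day or over both, in 10 or 12 libraries, with 0 at an unadjusted P under 0.05, where it called 0.548% of all miRs at day 7 and over both days in the 10 libraries and 0.0% elsewhere.

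miR-802-5p ran with miR-122-5p and miR-192-5p. It had 18, 70 and 23 counts with rapamycin at day 7 and 0, 9 and 0 at day 21, and with vehicle 185, 12 and 6 at day 7 and 1, 0 and 12 at day 21, each in replicates 1, 2 and 3. Its r with miR-122-5p was 0.90 over 10 libraries and 0.86 for deviations from the group means, given as a description. Between days in the 10 libraries its log2 change was -1.42 (SE 0.75, adjusted P = 0.899, edgeR). miR-152-3p, which shares the miR-148a-3p seed, had r = 0.52 with miR-122-5p and 224 counts in vehicle day 7 replicate 1 against 1 to 64 elsewhere. The passenger strand miR-148a-5p had r = -0.76 with miR-122-5p at 2 to 9 counts in the 10 libraries.

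In the 74 miRs that reach 10 counts in each of the 12 libraries, those most like miR-122-5p across the 10 listed libraries were miR-99a-5p (r = 0.88), miR-378a-3p (0.86), miR-23b-3p (0.83), miR-22-3p (0.81) and miR-181a-5p (0.80), where the median of the 74 was -0.23. Those most like miR-192-5p were miR-22-3p (0.93), miR-378a-3p (0.91), miR-99a-5p (0.79), miR-145-5p (0.77) and miR-23b-3p (0.72). Thus miR-99a-5p, miR-378a-3p, miR-23b-3p and miR-22-3p appeared on both lists. Values of 1 library share its total, so that a rise of abundant miRs lowers the share of all others.

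Marker miRs of other cells varied along with the liver miRs, and their Spearman's rho over the 10 libraries is given as a description. The summed CPM of the muscle markers (7 in the table, with miR-133b-3p, miR-206-3p and miR-208a-3p at 0 in the 10 libraries) ran from 0 to 1979 in the 10 libraries and went up and down with miR-122-5p (rho = 0.85). The summed epithelial markers (6 of 6, gut and kidney included) ran from 168 to 2416 and did the same (rho = 0.81), and with miR-192-5p rho was 0.85. The summed erythrocyte markers (5 of 6 in the table) were far more abundant, at 106860 to 193687 CPM. They ran the other way (rho = -0.48), as did the summed leukocyte and platelet markers at 15174 to 39345 CPM (rho = -0.62). Among the latter, miR-146a-5p went up with miR-122-5p (Pearson's r = 0.44). Per calibrator count, Pearson's r with miR-122-5p ran from -0.47 to 0.27 over the erythrocyte markers. Over the leukocyte and platelet markers it then ran from -0.11 to 0.68.

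By group of the 10 libraries, the muscle sum was 358 to 1260 CPM with rapamycin and 141 to 234 with vehicle at day 7, and 0 to 1979 and 34.8 to 599 at day 21. The epithelial sum was 860 to 2416 and 739 to 1674 at day 7, and 168 to 1144 and 279 to 679 at day 21. The 2 libraries outside the list had the highest epithelial sums (7991 CPM with rapamycin and 5280 with vehicle) and the lowest erythrocyte sums (76063 and 33715), and their muscle sums were 1031 and 11082 CPM. The part of these cell types in the day difference of miR-122-5p was not tested.

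**Figure D5:**
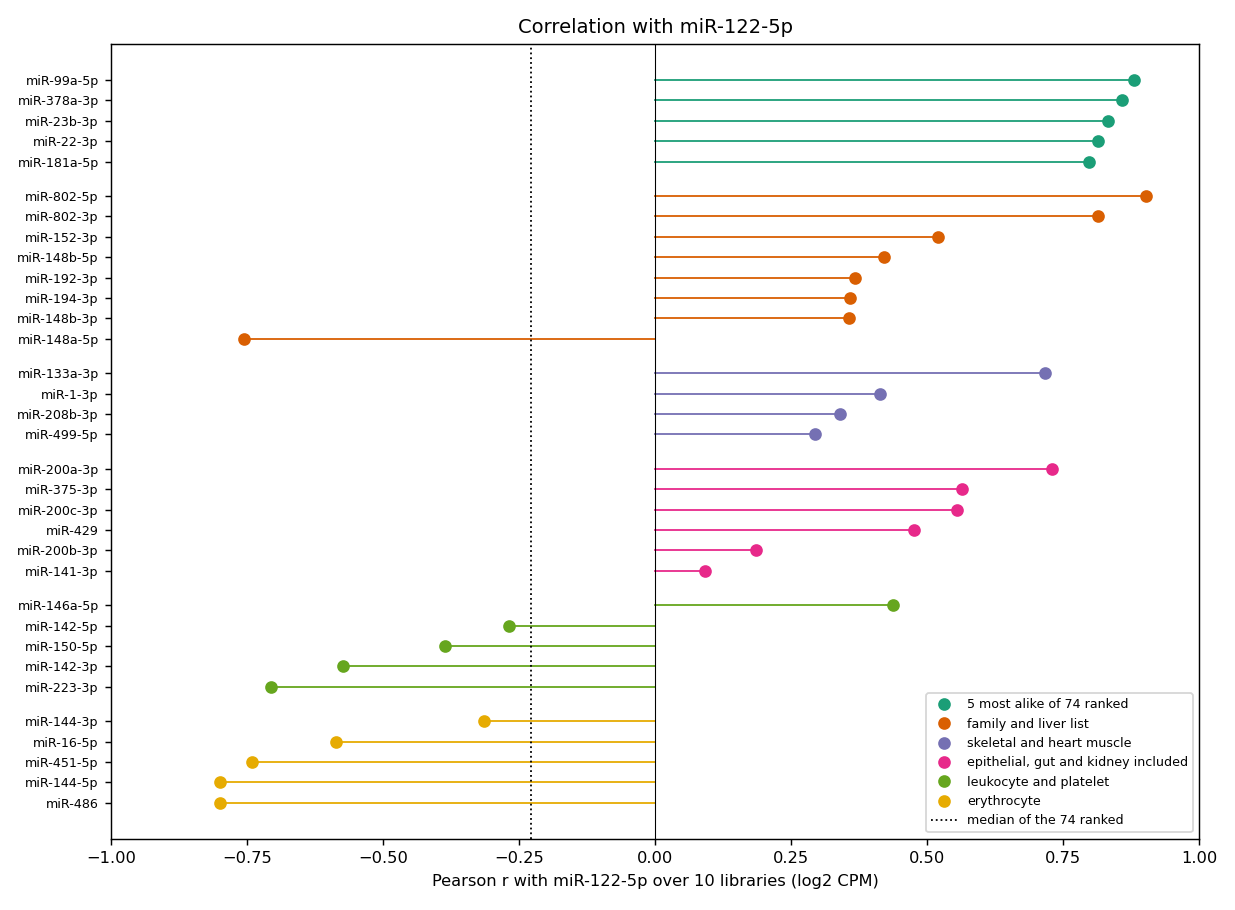
Pearson's r with miR-122-5p (horizontal axis) over 10 libraries for the 5 most alike miRs of 74, the list of relatives and the marker miRs of other cells (rows, coloured by list), with a dotted line at the median of the 74, -0.23. All muscle and epithelial markers drawn lie above 0, and all erythrocyte markers lie below it. The leukocyte and platelet markers lie below 0 except miR-146a-5p (0.44).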

How the data were processed

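Serum EV small RNA of 12 rats was sequenced, and per the labels and methods the authors trimmed reads (cutadapt 3.3), dropped those under 17 nt, aligned them (Bowtie 1.3.0, rat genome mRatBN7.2) and assigned them to miRBase miRs with miRDeep2 in the miND pipeline. The deposited values are raw counts per miR and per spike-in. The sequencer differs between the labels and the methods and is not stated here.

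Computed here: CPM of all miR counts, and log2 CPM (TMM, prior count 2). The 426 miRs (365 with a count in the 10 listed libraries) were tested with edgeR 4.0.16 (TMM, quasi-likelihood F test, robust) in a model of the 4 groups, or of treatment and day, with Benjamini-Hochberg adjustment over all of them at 0.05. The SE of an edgeR value is its absolute log2 value over the square root of F. Other settings were DESeq2 1.42.0, other library sizes, filters, all 12 libraries, a replicate block and each library left out. The day-label permutation, the calibrator scale over 12 libraries and the 3p share by group or day without each library were chosen after seeing the data. Permutation tests were exact and two-sided, and correlations used 100000 resamples (exact for n = 9). Scripts were tested on simulated data. Each library differed from its replicates by more than sampling noise. Depth was 16327 to 51391 miR counts, so a miR under about 3 counts has no fold change.

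The 5 miRs, the list of relatives, the marker lists and the rule for likeness (the 5 highest r among miRs with 10 or more counts in each of the 12 libraries) were chosen with earlier results of these data known.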

Additional observations from a re-analysis of the deposited data

Results flagged for a closer look

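The share of miR-122 counts on the 3p strand was 100% in rapamycin day 21 replicate 3, at 9 counts, and its gap to the next of the 10 libraries was 0.833 of their range. miR-194-5p was at 136 CPM in vehicle day 7 replicate 1, against 0 in the other 5 vehicle libraries of all 12. These were 2 of 21 sets of libraries examined for a value far from the rest, and chance alone flags about 1 in 20 of independent, normally spread sets. The sets here share libraries, so that rate is only a guide. With the other vehicle libraries at 0, any count of miR-194-5p in 1 library would have been flagged.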

How the results depend on the processing

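Depth and the spread between animals limit these results: day 7 has 2 listed libraries a group, miR-194-5p is under 3 counts, and miR-122-5p is under 10 counts in 3 of the 10 libraries. Of the alternatives, those of miR-194-5p have no value, since no fold is given for it.

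Between days the number of the 5 members called was 1 and became 0 with calibrator counts as library sizes, DESeq2, the expression filter and the replicate block over 10 libraries. The number of miRs called was 1, and 15 over 12 libraries, 5 at the abundance cutoff with most calls, 10 with the replicate block over 12, and 0 with DESeq2, the expression filter and the replicate block over 10. At day 7 it was 2, and 7 on that day alone (with 1 member called), 1 with plain totals, calibrator sizes or the replicate block over 10, and 0 over 12, with DESeq2, the filter and the block over 12. At day 21 it was 0, and 1 at the cutoff. With day as block it was 2, and 5 at the cutoff and 0 over 12, with DESeq2, the filter and either replicate block. The interaction gave 1, and 0 over 12, with plain totals, calibrator sizes, DESeq2, the filter and the replicate block over 12. The cause of these changes was not tested. Under the filter 135 miRs were fitted. In the model of treatment and day the moderated quasi-dispersion of miR-122-5p was then 5.78, against 0.651 without the filter.

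The labels do not say that a replicate number pairs animals. Deviations from group means of libraries with the same number correlated at -0.50 to -0.02 among the listed libraries. Over all 12 libraries they correlated at -0.78 to 0.31. With 2 or 3 libraries a group the deviations are tied to each other, so these values cannot decide whether the numbers mark a pairing. With the replicate block miR-122-5p changed by -1.52 between days over 10 libraries (adjusted P = 0.928, edgeR) and by -1.89 over 12 (adjusted P = 0.00225, edgeR). At day 7 its treatment difference with the block over 10 was 2.19 (adjusted P = 0.0872, edgeR), with 2 libraries a side.

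Signs turned in values that were not called. For miR-148a-3p at day 7 the log2 difference was -0.11 over 12 libraries, -0.16 with calibrator sizes and -0.10 with the block over 12. For miR-192-5p with day as block it was -0.032 with calibrator sizes. In the permutation of treatment within days miR-122-5p had a difference of 0.06, which was -0.33 over 12 libraries, -0.23 at a prior count of 0.5, -0.46 per calibrator and -0.91 per calibrator over 12. The r of miR-194-5p with miR-148a-3p was -0.10, and 0.034 with plain totals and 0.086 per calibrator.

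In the permutation of days within treatments (chosen after seeing the data) the P fell under 0.05 over 12 libraries for miR-122-5p (-3.07), miR-122-3p (-2.03) and miR-192-5p (-2.25), per calibrator over 12 for these (-4.75, -3.76 and -4.03) and miR-148a-3p (-1.61), and per calibrator over 10 for miR-122-3p (-2.80). Per calibrator over 12, day 7 includes the 2 libraries with 5.53 and 12.8 miR counts per calibrator count, so these differences also carry total miR content. In log2 CPM over 12 miR-148a-3p had -0.19 (P = 0.37, exact permutation). For treatment within days it did so for miR-148a-3p over 12 libraries (-0.53) and per calibrator (-0.70).

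Leaving out each library gave 0 to 5 miRs between days (0 to 3 members), 0 to 3 at day 7 (0 to 0 members), 0 to 1 at day 21 (0 to 1), 0 to 6 with day as block (0 to 1) and 0 to 5 for the interaction (0 to 1). The member at day 21 was miR-192-5p without rapamycin day 21 replicate 2. The values ran from -3.61 to 1.05 for miR-122-5p and -1.11 to 2.46 for miR-122-3p at day 21, from -0.12 to 0.31 for miR-148a-3p at day 7, from -0.58 to 1.23 for miR-122-5p and -0.50 to 0.64 for miR-192-5p with day as block, and from -2.40 to 1.04 for the interaction of miR-122-3p. The r ran from 0.50 to 0.92 for the miR-122 strands, 0.50 to 0.88 for miR-122-3p with miR-192-5p, -0.0035 to 0.39 for miR-122-3p with miR-194-5p and -0.33 to 0.079 for miR-194-5p with miR-148a-3p. The 3p share of miR-122 ran from 11.4 to 12.8% over the 10, and by group (chosen after seeing the data) from 5.56 to 60.0% with rapamycin and 4.88 to 13.6% with vehicle at day 21. The r of miR-122-5p with miR-192-5p kept its call in all 10.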
